A study of Mus musculus with 7 samples.

Results

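Induced pluripotent stem cell (iPSC) lines made from lineage-negative mouse bone marrow cells were set against embryonic stem cells (ESC) on Illumina bead arrays. The comparison used 4 arrays, 1 for each of the LinNeg_iPSC lines 1.1.2, 7 and 9 and 1 for ESC. The members were all array probes with a detection p-value under 0.01, called above background here, on at least 1 of these 4 arrays. They numbered 11809 of the 25697 probes and represented 8189 named genes. All cells carried the OG2 background, a strain with a green fluorescent protein reporter under regulatory sequence of Pou5f1, and no other allele or agent is named in the labels. Each line is a separately numbered culture with 1 array, and neither the donor animals of the lines nor the passage at RNA collection is labelled, so that the lines may or may not share an animal. A p-value here measures only the spread between these 3 arrays, which may be technical. The tissue label reads bone marrow for ESC as well, and the grouping therefore follows the cell type field. The same normalization held 3 further arrays, among them iPSCs from embryonic fibroblasts (MEF_iPSC) and from lineage-positive marrow (LinPos_iPSC), whose values against the same ESC array are given beside some results.

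Lineage-negative marrow is what remains once mature blood cells are depleted by their surface antigens. It holds the stem and progenitor cells of blood. Reprogramming replaces the blood programme of such cells by the network of transcription factors around Pou5f1, Sox2 and Nanog that keeps ES cells able to form all tissues of the embryo. Mouse ES cells and iPSCs grow as tight epithelial colonies, depend on signals such as LIF and BMP, and can shed cells of the primitive endoderm, the lineage that builds the yolk sac and secretes basement membrane. The comparison with ESC asks how closely reprogrammed lines match cells taken from an embryo.

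All 10 ES cell markers examined were above background in every line and in ESC, with a mean log2 level of 11.33 to 11.38 in the lines and 11.51 in ESC. Of 8 blood markers only Coro1a, an actin-binding protein of leukocytes that other cells also use, was above background, in all 3 lines and in ESC. Ptprc, Spi1, Mpo, Cd52, Rac2, Lcp1 and Hba-a1 were not well above background on any of the 4 arrays. No trophectoderm, neural or mesoderm marker examined was above background in a line or in ESC. Fibroblast markers were above background for 5, 6 and 5 of 9 in lines 1.1.2, 7 and 9, against 4 of 9 in ESC, and primitive endoderm markers for 6, 4 and 6 of 8, against 4 of 8 in ESC. The 3 lines had 10707, 10904 and 10737 probes above background, and ESC had 10423.

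The lines and ESC were close across the whole array. The median absolute difference between the mean of the lines and ESC was 0.21 on the log2 scale, and the median SD between the lines was 0.17. In line 1.1.2, 89.3% of member probes lay within 1.5-fold of ESC, in line 7 83.9% and in line 9 82.0%. Between the lines, 89.6% of probes lay within 1.5-fold for lines 1.1.2 and 7, 88.2% for 1.1.2 and 9 and 91.4% for 7 and 9. Lines 7 and 9 were thus closer to each other and to line 1.1.2 than to ESC, and line 1.1.2 was about as close to ESC as to the other lines. Line 1.1.2 had 164 probes at least 2-fold above ESC and 90 at least 2-fold below, line 7 had 317 and 154, and line 9 had 294 and 209.

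No probe passed limma's test of the lines against ESC at an adjusted p of 0.05 (0 of 11809, 0%), and the lowest adjusted p was 0.356. The unadjusted p was under 0.05 for 1217 probes, 642 higher and 575 lower in the lines. The test had 2 residual degrees of freedom from the 3 lines, and the lone ESC array was assumed to vary like them. When the variance was allowed to follow the signal level and the prior was made robust, 103 probes passed, 85 higher and 18 lower in the lines, and without background correction 4 passed. Since an exact permutation of 3 arrays against 1 cannot reach a p of 0.05, agreement between the lines is given below as a description, without a test.

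All 3 lines lay above ESC for 3275 of the 11809 member probes (27.7%) and below ESC for 3668 (31.1%), and for 4866 (41.2%) the lines lay on both sides. All 3 lines were at least 1.5-fold above ESC for 272 probes (2.3%) and at least 1.5-fold below for 175 (1.48%). With the brightest member probe standing for its gene, the same counts over 8189 genes were 2357 above (28.8%), 2504 below (30.6%), 220 at least 1.5-fold above (2.69%) and 114 at least 1.5-fold below (1.39%). These 4 gene percentages are the background against which each gene group below is read. Because the lines share the 1 ESC array, a deviation of that array alone would put all lines on the same side, and the 2 cannot be told apart. Of the 272 higher probes, 78 were not above background in ESC. Of the 175 lower probes, 59 were not above background in any line.

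**Figure D1:**
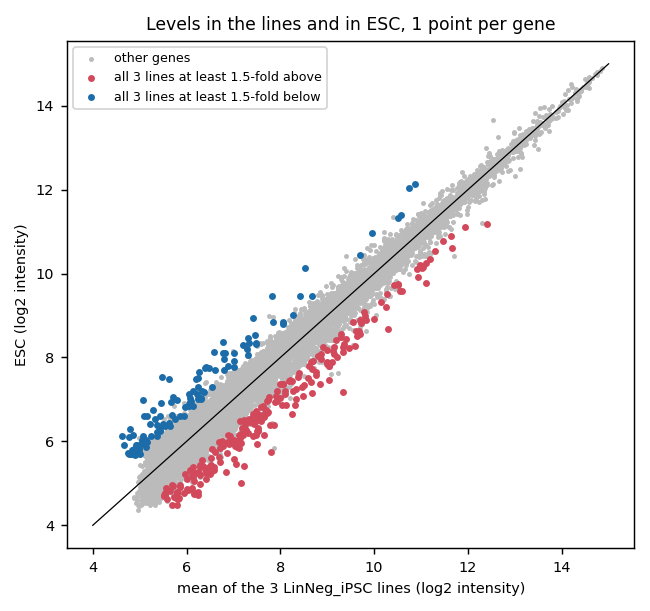
Mean log2 intensity of the 3 LinNeg_iPSC lines (horizontal axis) against the ESC array (vertical axis), 1 point per gene for 8189 genes, with the line of equality. The 220 genes at least 1.5-fold above ESC in all 3 lines and the 114 at least 1.5-fold below are coloured, and most of the other genes lie close to the diagonal.

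The genes set furthest apart from ESC in all 3 lines were mostly of moderate or low signal and had varied functions. Kcnk1, a potassium leak channel, stood at 8.91, 9.30 and 9.81 in lines 1.1.2, 7 and 9 and at 7.18 in ESC, a log2 difference of 2.16 ± 0.36 (limma standard error). That was the widest gap above ESC among all member probes, and the lines differed among themselves by up to 0.91. Svop, related to a synaptic vesicle transporter, stood at 8.10, 8.09 and 8.54 in the lines and at 6.64 in ESC, or 3.03-fold higher. Slc40a1, the iron exporter ferroportin, stood at 7.31, 7.51 and 7.66 in the lines and at 5.94 in ESC, or 2.94-fold higher. For both genes every line lay above ESC by more than the whole range between the lines, which choosing genes by the widest gap favours.

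Epha1, an ephrin receptor tyrosine kinase, reached 7.04, 7.41 and 7.20 in the lines, against 5.40 in ESC, a value below background, which makes it at least 2.93-fold higher. A second Epha1 probe differed in the same direction by 1.17. Insm1, a zinc finger factor of neuroendocrine cells, reached 6.22, 6.33 and 6.19 in the lines against 4.72 in ESC, below background, and was at least 1.49-fold higher. Cd109, a surface protein that binds TGF-beta, reached 6.46, 6.94 and 7.13 in the lines against 5.27 in ESC, below background, and was at least 2.26-fold higher. In these 3 genes the signal exceeded background in every line but not in ESC.

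Ramp3, a partner protein of the calcitonin-like receptor, stood at 7.72, 7.90 and 7.99 in the lines and at 6.39 in ESC. Metrn, a secreted factor of neural progenitors, stood at 9.66, 9.62 and 9.48 in the lines and at 8.28 in ESC, 2.47-fold higher. Steap1, a metalloreductase, stood at 7.55, 7.46 and 7.40 in the lines and at 6.15 in ESC. The SD between the lines was 0.13 for Ramp3, 0.09 for Metrn and 0.07 for Steap1. The distance to ESC was many times this spread, which choosing genes by the gap between ESC and the nearest line favours. Sfn, an epithelial 14-3-3 protein, stood at 7.38, 7.53 and 8.02 in the lines and at 6.16 in ESC. The remaining genes of the 15 with the widest gaps above ESC were Cited4, Ugt1a10, Gng13, Cpeb1 and Cldn3, all not above background in ESC and at least 1.09-fold to at least 2.63-fold higher in the lines.

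**Figure D2:**
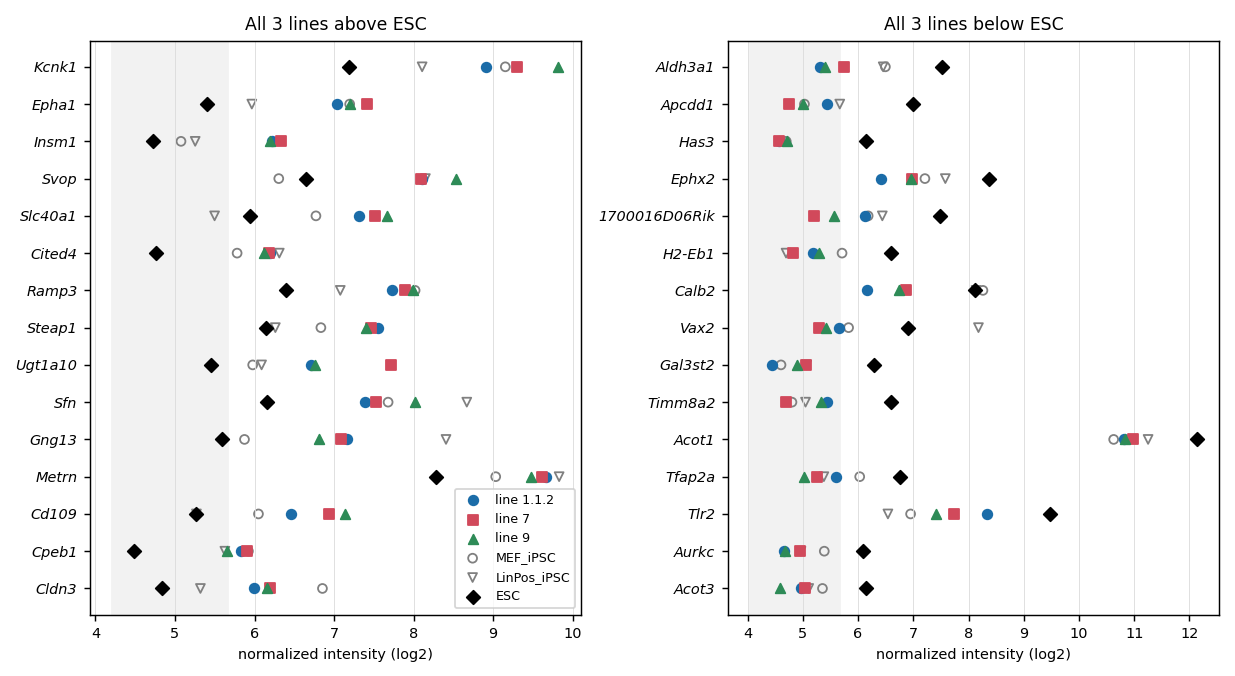
Normalized log2 intensity (horizontal axes) of the 15 genes with the widest gap between ESC and the nearest line in each direction, with the 3 lines as filled coloured symbols, MEF_iPSC and LinPos_iPSC as open symbols and ESC as black diamonds. The shading ends at 5.67, the lowest value of a probe above background on the ESC array, and many of the genes below ESC have all their lines inside it.

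On the other side, Aldh3a1, an aldehyde dehydrogenase, had the widest gap below ESC. It stood at 5.30, 5.75 and 5.40 in the lines, above background in 1 of 3, and at 7.53 in ESC, at least 3.74-fold lower. Apcdd1, an inhibitor of Wnt signalling at the cell surface, stood at 5.44, 4.74 and 5.0, not above background in any line, and at 6.99 in ESC, at least 2.73-fold lower. Has3, a hyaluronan synthase, was at least 1.51-fold lower, with 4.58, 4.57 and 4.71 in the lines, all below background, and 6.14 in ESC. These 3 genes were measurable in ESC and at or near the detection limit in the lines.

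Acot1, a cytosolic acyl-CoA thioesterase, was the brightest of the 15 genes with the widest gaps below ESC, with 10.82, 10.98 and 10.83 in the lines and 12.14 in ESC. Its log2 difference was -1.26 ± 0.18 (limma standard error), the SD between the lines was 0.09, and a second Acot1 probe differed by -1.58. Acot1 shares much of its sequence with neighbouring thioesterase genes, so the probes may also read those. Acot3, such a neighbour, stood at 4.97, 5.04 and 4.59 in the lines, all below background, and at 6.15 in ESC. Ephx2, the soluble epoxide hydrolase that acts on fatty acid epoxides, stood at 6.42, 6.98 and 6.96 in the lines and at 8.38 in ESC, 3.01-fold lower. Slc25a20, the mitochondrial carnitine carrier, stood at 9.84, 9.59 and 9.69 in the lines and at 10.45 in ESC, 1.67-fold lower. These 4 lipid-handling genes were brought together with their direction known, and Acot1, Acot3 and Ephx2 were among the 15 widest gaps below ESC. That all 4 lay below ESC in every line follows from this choice. They were not a list of their own, so no group count stands behind them.

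Tlr2, a receptor of innate immunity, stood at 8.34, 7.73 and 7.41 in the lines and at 9.48 in ESC, 3.13-fold lower. Calb2, the calcium-binding protein calretinin, stood at 6.15, 6.87 and 6.73 in the lines and at 8.12 in ESC, and a second probe differed by -0.73. The other genes with the widest gaps below ESC were 1700016D06Rik, H2-Eb1, Vax2, Gal3st2, Timm8a2, Tfap2a and Aurkc. H2-Eb1, Gal3st2, Timm8a2 and Aurkc were not above background in any line, Vax2 and Tfap2a were above background in 1 of 3, and 1700016D06Rik was above it in 2 of 3.

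The core network of pluripotency was at ESC level or slightly below it. Pou5f1 stood at 12.95, 12.87 and 12.83 in the lines and at 12.95 in ESC. Nanog stood at 12.66, 12.42 and 12.57 in the lines and at 12.69 in ESC. Sox2 stood at 9.995, 9.90 and 9.77 in the lines and at 9.97 in ESC. For these 3 factors, ESC lay inside the range of the lines or within 0.03 of its edge. Esrrb, Zfp42 and Dppa5a differed from ESC by at most 0.05 in the mean of the lines.

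Of 15 member genes on the list of core pluripotency factors, 7 lay below ESC in all 3 lines and 1 above, with a median difference of -0.14. Tcl1, a cofactor of Akt kinase, was the only member at least 1.5-fold lower in all lines, at 10.63, 10.42 and 10.51 in the lines and 11.33 in ESC. A second Tcl1 probe differed by -1.29. Tbx3, a T-box factor of naive cells, stood at 10.62, 10.10 and 9.89 in the lines and at 10.98 in ESC, and its 2 other probes differed by -0.91 to -0.74. Klf2, a Kruppel-like factor of the naive state, stood at 13.11, 13.05 and 12.78 in the lines and at 13.38 in ESC, 1.32-fold lower. Of 20 pluripotency marker genes, 11 lay below and 5 above ESC in all lines, none by 1.5-fold in all 3, with a median of -0.12. Dnmt3l, a cofactor of de novo methylation, went the other way, with 13.52, 12.95 and 12.85 in the lines and 12.50 in ESC. So did Lin28a, an RNA-binding regulator of let-7, with 8.80, 9.15 and 9.19 in the lines and 8.55 in ESC.

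**Figure D3:**
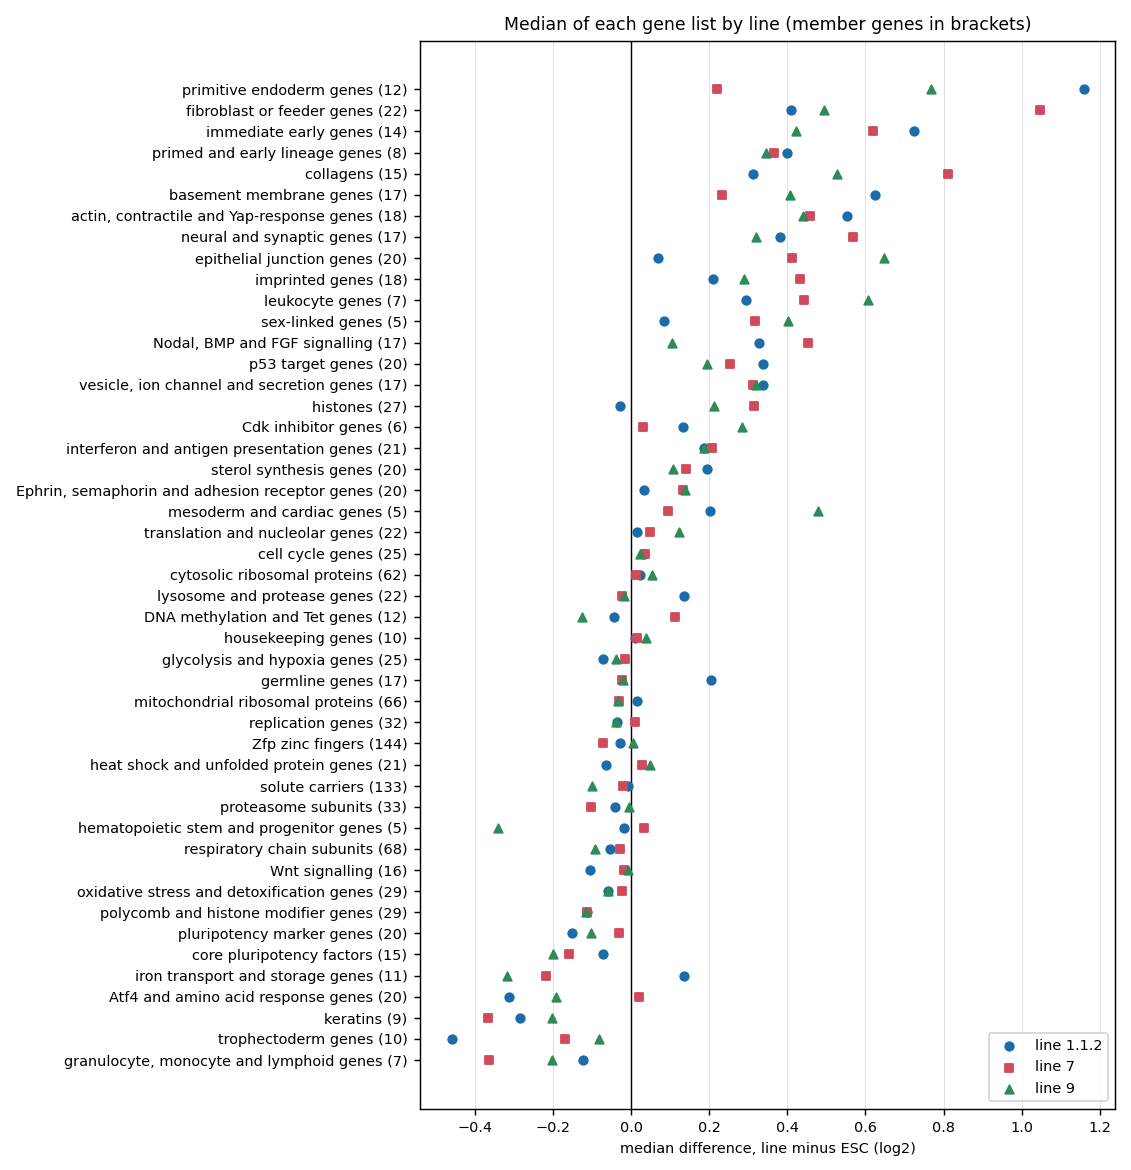
Median log2 difference from ESC of each gene list with at least 5 member genes (horizontal axis), separately for lines 1.1.2, 7 and 9, with the number of member genes in brackets. Primitive endoderm genes have the highest median in lines 1.1.2 and 9 but stand at 0.22 in line 7, where fibroblast genes have the highest. Both lists have the widest separation between lines, while the lists of general cell machinery lie near 0.

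By count, epithelial junction genes had the most members at least 1.5-fold above ESC in all lines among the 50 lists examined. Claudins seal tight junctions, the cadherins Cdh1 and Cdh3 join cells at adherens junctions, and Grhl2 is a Grainyhead-like factor that activates such genes in epithelia. Of 20 member genes on this list, 10 lay above ESC in all 3 lines and 3 below, and 6 were at least 1.5-fold above, against 2.69% of all genes. Of these 6, 2 lie on chromosome 8. The lists of Nodal, BMP and FGF signalling, of actin and Yap response and of oxidative stress had 5 such members each, 0 of them on chromosome 8. The lists also differed in size, so the ranking holds for the raw count only. The median differences of lines 1.1.2, 7 and 9 were 0.07, 0.41 and 0.65, so that line 1.1.2 lay close to ESC for the list as a whole. MEF_iPSC had 0.39 and LinPos_iPSC 0.21 against the same ESC array.

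Cldn6, a claudin of early embryos, stood at 9.81, 10.32 and 10.73 in the lines and at 8.69 in ESC, a log2 difference of 1.60 ± 0.37 (limma standard error). Cldn4 stood at 11.81, 11.87 and 12.11 in the lines and at 11.11 in ESC, 1.77-fold higher. Cldn3 stood at 6.0, 6.20 and 6.16 in the lines and at 4.84 in ESC, below background there, at least 1.37-fold higher. These 3 claudins differed from ESC in every line, and Cldn6 varied most between the lines. Cldn7, a further claudin on the list, was not among the 6 genes at least 1.5-fold above ESC in all lines. Their promoters are shown because the claudins were the largest family among the 6 genes. The sequences, from RefSeq on GRCm38.p6, run from 250 bases before to 50 bases after the annotated start, and capitals mark the E-box letters CACCTG or their reverse complement CAGGTG, the letters that the E-box repressors of epithelial genes are known to bind.

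Cldn3, chr5:134985964-134986263, + strand: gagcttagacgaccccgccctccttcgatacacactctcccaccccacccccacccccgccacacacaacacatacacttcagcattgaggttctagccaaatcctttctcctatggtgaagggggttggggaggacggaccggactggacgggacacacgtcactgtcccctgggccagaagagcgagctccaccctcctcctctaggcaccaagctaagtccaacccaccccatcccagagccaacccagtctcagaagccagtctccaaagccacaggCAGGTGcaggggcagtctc
Cldn4, chr5:134946885-134947184, - strand: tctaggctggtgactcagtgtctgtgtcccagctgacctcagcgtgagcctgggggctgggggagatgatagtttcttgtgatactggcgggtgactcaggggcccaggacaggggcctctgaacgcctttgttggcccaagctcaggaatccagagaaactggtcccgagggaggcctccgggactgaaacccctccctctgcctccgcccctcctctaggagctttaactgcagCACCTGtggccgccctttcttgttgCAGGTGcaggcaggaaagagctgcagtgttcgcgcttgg
Cldn6, chr17:23679115-23679414, + strand: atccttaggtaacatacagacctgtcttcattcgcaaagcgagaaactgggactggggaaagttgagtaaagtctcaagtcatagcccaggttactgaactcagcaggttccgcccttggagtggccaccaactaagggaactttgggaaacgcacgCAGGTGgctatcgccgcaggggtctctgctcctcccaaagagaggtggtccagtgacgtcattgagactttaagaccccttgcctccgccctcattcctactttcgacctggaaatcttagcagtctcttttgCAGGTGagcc

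The Cldn3 window held 1 such E-box and the Cldn4 and Cldn6 windows 2 each. Promoter windows were in the table for 12 of the 20 junction genes, 14 windows in all, and 10 of the 14 held the letters on either strand, against 20.2% of all 32851 windows and 18.3% of the 8652 windows of member genes. The Grainyhead letters AACCGGTT, which read the same on both strands, occurred in 0.146% of all windows and in 0 of the 14. At so low a share a match in 14 windows was unlikely in any case, so the 0 carries no information on Grainyhead factors. With no Grainyhead match in these windows, no match of the 2 motifs overlapped, and the matches describe the letters only.

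Cdh1, which encodes E-cadherin, stood at 10.33, 10.53 and 10.65 in the lines and at 9.73 in ESC, 1.71-fold higher. Cdh3, which encodes P-cadherin, stood at 8.55, 9.08 and 9.37 in the lines and at 7.84 in ESC, and its other probes differed by 0.32 to 1.28. Both genes lie on chromosome 8, where the median gene stood higher in lines 7 and 9, as described at the end. Grhl2 stood at 7.54, 7.40 and 7.28 in the lines and at 6.14 in ESC, 2.41-fold higher. Rab25, a trafficking GTPase of epithelia, and Esrp1, an epithelial splicing factor, split the lines. Rab25 stood at 5.95 in line 1.1.2 but at 7.05 and 7.53 in lines 7 and 9, against 6.04 in ESC. Esrp1 stood at 8.36 in line 1.1.2 but at 9.49 and 9.76 in lines 7 and 9, against 8.48 in ESC.

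**Figure D4:**
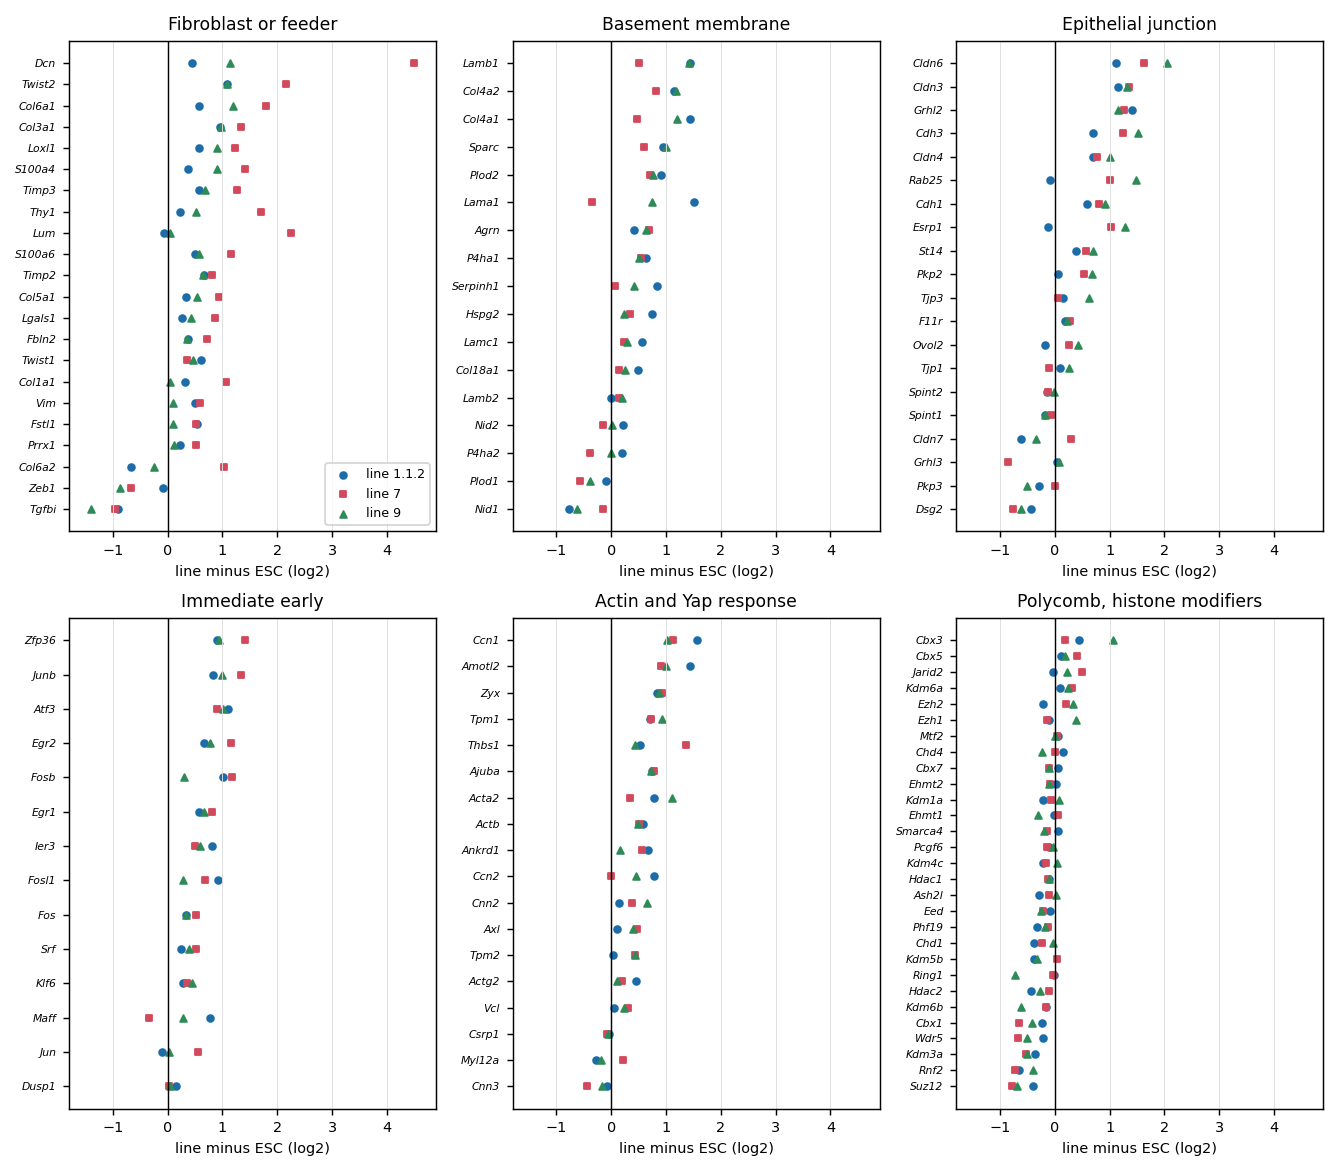
Log2 difference from ESC (horizontal axes) of every member gene of 6 lists, separately for lines 1.1.2, 7 and 9. Dcn in line 7 is far outside the other fibroblast genes, 6 epithelial junction genes have all 3 lines at least 1.5-fold above ESC, and the polycomb and histone modifier genes lie mostly just below 0.

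Signalling through Nodal, BMP and FGF keeps the balance between self-renewal and the first lineage choices. Of 17 member genes of these pathways, 12 lay above ESC in all 3 lines and 2 below, and 5 were at least 1.5-fold above and 0 below. The 2 below were Tdgf1, at 6.69, 6.81 and 7.24 in the lines and 7.55 in ESC, and Fgf4. Fgf4 stood at 8.60, 8.28 and 8.03 in the lines and at 8.77 in ESC. The list's median was 0.28, with 0.33, 0.45 and 0.10 in lines 1.1.2, 7 and 9, against -0.18 in MEF_iPSC and -0.03 in LinPos_iPSC.

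Lefty1, a secreted inhibitor and target of Nodal, stood at 12.26, 12.47 and 12.50 in the lines and at 11.19 in ESC, 2.34-fold higher, with an SD between the lines of 0.13. Lefty2, its neighbour on chromosome 1, stood at 10.81, 10.67 and 11.31 in the lines and at 9.93 in ESC. Lefty1 was among the genes that passed when the variance followed the signal level, with an adjusted p of 0.000222 in that alternative. In MEF_iPSC and LinPos_iPSC, Lefty1 stood at 10.89 and 10.55, below the ESC level, whereas Lefty2 stood at 10.47 and 12.23, above it.

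Bmp4, a ligand of the BMP pathway, stood at 7.39, 8.03 and 7.81 in the lines and at 6.71 in ESC, 2.05-fold higher. Id1, a target of BMP signalling that blocks differentiation factors, stood at 9.18, 9.39 and 9.47 in the lines and at 8.12 in ESC, 2.34-fold higher. Id2, a related target, stood at 8.21, 8.35 and 8.60 in the lines and at 7.52 in ESC, 1.82-fold higher. Bmp4, Id1 and Id2 thus lay above ESC in all 3 lines. In MEF_iPSC and LinPos_iPSC, Bmp4 stood at 8.42 and 8.62 and Id1 at 8.39 and 9.39, also above ESC. Both Bmp4 levels exceeded those of the 3 lines. Id2 stood at 7.11 in MEF_iPSC, below ESC, and at 9.02 in LinPos_iPSC, above it. Of 16 Wnt pathway genes, 6 lay above and 5 below ESC in all lines, with a median of -0.08. Wls, which carries Wnt ligands to the surface, stood at 6.61, 6.39 and 6.84 in the lines and at 5.76 in ESC, while the Wnt inhibitor gene Apcdd1 was the member furthest below ESC.

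Immediate early genes, which cells switch on within minutes of serum or stress, stood higher in the lines with 2 exceptions. Of 14 member genes, 12 lay above ESC in all 3 lines and 0 below, and 4 were at least 1.5-fold above, with a median of 0.63. The medians in lines 1.1.2, 7 and 9 were 0.72, 0.62 and 0.42, against 0.32 in MEF_iPSC and 0.60 in LinPos_iPSC, so the other iPSC arrays also lay above ESC. Egr1, the brightest of those named, stood at 12.90, 13.13 and 12.99 in the lines and at 12.33 in ESC. Zfp36, an RNA-binding protein that shortens the life of cytokine messages, stood at 9.82, 10.31 and 9.85 in the lines and at 8.91 in ESC, 2.12-fold higher. Atf3 stood at 7.27, 7.06 and 7.17 in the lines and at 6.17 in ESC, 2.0-fold higher. Junb, on chromosome 8, stood at 10.02, 10.55 and 10.19 in the lines and at 9.20 in ESC.

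Actin, contractile and Yap-response genes also stood higher. Yap is a coactivator that responds to cell shape and contact, with Ccn1, Ccn2 and Amotl2 among its known targets. Of 18 member genes, 14 lay above ESC in all 3 lines and 2 below, 5 were at least 1.5-fold above, and the median was 0.43. Ccn1, a secreted matricellular protein, stood at 9.37, 8.94 and 8.83 in the lines and at 7.80 in ESC, 2.36-fold higher, and its 2 other probes differed by 0.67 to 1.17. Amotl2 stood at 7.43, 6.90 and 6.98 in the lines and at 5.99 in ESC. Ccn2 did not follow, with 12.38, 11.58 and 12.03 in the lines and 11.59 in ESC. Zyx, which encodes the focal adhesion protein zyxin, stood at 10.996, 11.10 and 11.03 in the lines and at 10.16 in ESC. Tpm1, a tropomyosin, stood at 10.90, 10.91 and 11.12 in the lines and at 10.19 in ESC. Actb stood at 13.55, 13.49 and 13.45 in the lines and at 12.97 in ESC, yet its 4 other probes ranged from -0.77 to 0.37, so no direction can be given for Actb as a gene. MEF_iPSC had a list median of 0.62 and LinPos_iPSC 0.05.

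Most primitive endoderm genes stood above ESC, at levels that varied widely between the lines. Of 12 member genes, 8 lay above ESC in all 3 lines and 0 below, 1 was at least 1.5-fold above in all 3, and the medians of lines 1.1.2, 7 and 9 were 1.16, 0.22 and 0.77. Gata6, a master factor of this lineage, stood at 8.35, 6.22 and 7.69 in lines 1.1.2, 7 and 9 and at 7.19 in ESC, so that line 7 lay below ESC and the others above. Sox17 stood at 6.20, 4.73 and 6.21 in the lines and at 4.72 in ESC, above background only in lines 1.1.2 and 9. Sox7 stood at 6.70, 5.40 and 5.94 in the lines and at 5.16 in ESC, with the same pattern of detection. Dab2, an endocytic adaptor of endoderm, stood at 10.17, 8.54 and 9.95 in the lines and at 8.30 in ESC. In these 4 genes line 7 was the lowest line. Pdgfra, a growth factor receptor of primitive endoderm and of mesenchymal cells, was the member at least 1.5-fold above in all lines, and there line 7 was the highest, with 7.58, 8.34 and 7.73 in lines 1.1.2, 7 and 9 and 6.94 in ESC, 1.92-fold higher. Gata4 and Foxa2 were not above background on any of the 4 arrays. In bulk samples such as these, more cells of a type and more RNA per cell cannot be told apart.

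Basement membrane genes, which primitive endoderm cells are known to express strongly, stood higher in part. Of 17 member genes, 11 lay above ESC in all 3 lines and 2 below, 3 were at least 1.5-fold above, and the medians were 0.62, 0.23 and 0.41 in lines 1.1.2, 7 and 9. Lama1, a laminin chain, stood at 10.36, 8.50 and 9.58 in the lines and at 8.84 in ESC, in the order seen for Gata6. Sparc, a matrix glycoprotein, stood at 11.21, 10.85 and 11.25 in the lines and at 10.26 in ESC, and a second probe differed by 0.85. Col4a1 stood at 10.45, 9.49 and 10.21 in the lines and at 9.01 in ESC. Col4a2, its partner chain and neighbour on chromosome 8, stood at 9.45, 9.12 and 9.49 in the lines and at 8.31 in ESC. Plod2, a collagen lysyl hydroxylase, stood at 8.97, 8.78 and 8.84 in the lines and at 8.07 in ESC, 1.73-fold higher and nearly equal in the 3 lines.

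Fibroblast or feeder genes stood higher in all lines and most in line 7. Of 22 member genes, 18 lay above ESC in all 3 lines and 2 below, 3 were at least 1.5-fold above and 1 below, and the medians were 0.41, 1.05 and 0.49 in lines 1.1.2, 7 and 9, against 0.27 in MEF_iPSC and 0.11 in LinPos_iPSC. Dcn, which encodes the connective tissue proteoglycan decorin, stood at 6.27, 10.33 and 6.98 in the lines and at 5.83 in ESC. Thy1, a surface marker of fibroblasts that ES cells also carry, stood at 9.85, 11.34 and 10.15 in the lines and at 9.62 in ESC. Lum, which encodes lumican, was above background only in line 7, at 6.92, with 4.60 and 4.72 in lines 1.1.2 and 9 and 4.67 in ESC. Lum and Thy1 are named as defining fibroblast markers. The defining markers Col1a2, Postn and Pdgfrb were not above background on any of the 4 arrays, and the mean log2 level of the 9 fibroblast markers was 6.03, 6.98 and 6.06 in lines 1.1.2, 7 and 9 and 5.72 in ESC.

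Line 7 did not account for all of the group. Timp2, a metalloprotease inhibitor, stood at 10.38, 10.53 and 10.36 in the lines and at 9.72 in ESC, 1.63-fold higher. Twist2, a mesenchymal transcription factor, stood at 5.88, 6.95 and 5.87 in the lines and at 4.80 in ESC, below background there, at least 1.48-fold higher. Col3a1, a fibrillar collagen, stood at 6.03, 6.40 and 6.04 in the lines and at 5.06 in ESC, at least 1.40-fold higher. Tgfbi, an extracellular matrix protein induced by TGF-beta, lay the other way, with 7.39, 7.34 and 6.90 in the lines and 8.30 in ESC, 2.13-fold lower. Of the 15 collagen genes above background, 10 lay above ESC in all lines and 1 below, with a median of 0.47. Whether carried-over feeder cells contributed to these values was not tested.

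Imprinted genes, whose dosage depends on marks set in the parental germ lines, stood higher on balance. Of 18 member genes, 10 lay above ESC in all 3 lines and 2 below, 3 were at least 1.5-fold above, and the median was 0.35. Dlk1, a paternally expressed growth regulator, stood at 7.75, 10.45 and 7.83 in the lines and at 7.15 in ESC, so line 7 stood far above the others. Igf2, the paternally expressed insulin-like growth factor, stood at 10.98, 12.72 and 11.40 in the lines and at 10.41 in ESC, again highest in line 7. Grb10, an adaptor that restrains growth factor signalling, stood at 8.86, 9.02 and 8.73 in the lines and at 7.97 in ESC, 1.87-fold higher with an SD between the lines of 0.14. Peg10 stood at 6.98, 6.91 and 6.76 in the lines and at 6.15 in ESC, 1.67-fold higher. Line 7 was thus the outlying line for Dcn, Dlk1 and Igf2, while Grb10 and Peg10 were alike in the 3 lines.

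Some neural and secretory genes were above ESC in every line. Of 17 neural and synaptic genes, 10 lay above ESC in all lines and 3 below, and 4 were at least 1.5-fold above. Map2, a microtubule protein of dendrites, stood at 6.07, 6.21 and 6.92 in the lines and at 5.34 in ESC, below background there, at least 1.66-fold higher. Stmn2, a tubulin-binding protein of growing axons, was lower, with 10.79, 10.41 and 9.999 in the lines and 11.35 in ESC. Trh, the precursor of thyrotropin-releasing hormone, stood at 11.56, 12.58 and 12.76 in the lines and at 11.21 in ESC. Of 17 vesicle, ion channel and secretion genes, 10 lay above ESC in all lines and 3 below, with a median of 0.22. Both lists hold Svop and Kcnk1, whose gaps were among the widest described above.

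Among 20 p53 target genes, 13 lay above ESC in all 3 lines and 3 below, with a median of 0.25 in the lines, -0.41 in MEF_iPSC and 0.21 in LinPos_iPSC. Ddit4, an inhibitor of mTORC1 that stress induces, stood at 10.40, 10.64 and 10.73 in the lines and at 9.58 in ESC, 2.01-fold higher, and was the only member at least 1.5-fold above in all 3. Ccng1, a cyclin that p53 induces, stood at 12.17, 12.36 and 12.36 in the lines and at 11.76 in ESC, and its 2 other probes differed by 0.46 to 0.49. Cdkn1a, the p21 Cdk inhibitor, stood at 11.72, 11.42 and 11.47 in the lines and at 11.16 in ESC, 1.31-fold higher. The cell cycle list itself was balanced, with 10 of 25 members above and 5 below ESC in all lines and a median of 0.06, which was -0.07 with arrays scaled to a common median. Its exception was Ccnd2, a D-type cyclin, at 8.68, 9.30 and 9.12 in the lines and 7.81 in ESC, 2.34-fold higher. Ccnd1, the related cyclin, differed by 0.19.

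Metabolic and stress groups showed members in both directions. Of 29 oxidative stress and detoxification genes, 8 lay above and 14 below ESC in all lines, with 5 at least 1.5-fold above and 2 below. Gpx3, the secreted glutathione peroxidase, stood at 8.29, 8.74 and 8.52 in the lines and at 7.34 in ESC, 2.26-fold higher. Gsto1, a glutathione transferase, stood at 10.95, 10.97 and 11.12 in the lines and at 10.14 in ESC, 1.83-fold higher. Ephx1, the microsomal epoxide hydrolase, stood at 9.56, 9.54 and 9.56 in the lines and at 8.84 in ESC, with an SD between the lines of 0.01, while Ephx2 was lower as given above. Cbr1, a carbonyl reductase, stood at 8.60, 8.79 and 8.64 in the lines and at 7.73 in ESC. The list therefore held genes at both ends, Aldh3a1 and Ephx2 lowest and Gpx3 highest in its mean difference.

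Of 20 genes of the Atf4 and amino acid response, 10 lay below and 5 above ESC in all lines, with a median of -0.20. Asns, asparagine synthetase, stood at 13.30, 13.48 and 13.49 in the lines and at 13.84 in ESC, and its 2 other probes differed by -0.49 to -0.45. Nupr1, a stress-induced chromatin protein, stood at 8.71, 8.81 and 8.49 in the lines and at 9.47 in ESC, 1.74-fold lower. Of 20 sterol synthesis genes, 11 lay above and 4 below ESC in all lines, none by 1.5-fold in all 3. Msmo1, a sterol demethylase on chromosome 8, stood at 9.75, 10.33 and 10.66 in the lines and at 9.57 in ESC.

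Genes that write and remove chromatin marks stood slightly lower. Of 29 polycomb and histone modifier genes, 13 lay below ESC in all 3 lines and 3 above, 0 by 1.5-fold in either direction in all lines, and the medians were -0.11, -0.11 and -0.12 in lines 1.1.2, 7 and 9. Suz12, a core subunit of polycomb repressive complex 2, stood at 12.61, 12.22 and 12.30 in the lines and at 13.005 in ESC, 1.54-fold lower in the mean. Rnf2, the ubiquitin ligase of polycomb repressive complex 1, stood at 6.90, 6.84 and 7.17 in the lines and at 7.56 in ESC. Kdm3a, a histone H3 lysine demethylase, stood at 10.57, 10.41 and 10.42 in the lines and at 10.93 in ESC, and its 2 other probes differed by -0.60 to -0.42. Ezh2, the methyltransferase of the complex that holds Suz12, spanned ESC, with 10.50, 10.92 and 11.04 in the lines and 10.72 in ESC. The medians of this list in MEF_iPSC and LinPos_iPSC were -0.15 and -0.15 against the same ESC array.

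Dnmt3b, a de novo DNA methyltransferase, stood at 12.31, 12.44 and 12.33 in the lines and at 11.78 in ESC, 1.5-fold higher, and a second probe differed by 0.80. Among 12 DNA methylation and Tet genes, 2 lay above and 2 below ESC in all lines, and the median was 0.02. Setdb1, a histone H3 lysine 9 methyltransferase, stood at 8.83, 8.94 and 8.85 in the lines and at 9.27 in ESC, 1.31-fold lower. Of 27 histone genes, 11 lay above and 4 below ESC in all lines. Their median was -0.03 in line 1.1.2 and 0.31 and 0.21 in lines 7 and 9.

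The large machineries of the cell differed little. Of 62 cytosolic ribosomal protein genes, 25 lay above and 11 below ESC in all lines, with a median of 0.03 and, when only the array medians were equalised, of -0.06, with 0 at least 1.5-fold apart in all 3. Of 68 respiratory chain subunits, 10 lay above and 27 below, with a median of -0.06. Mitochondrial ribosomal protein genes had 15 of 66 above and 19 below, proteasome subunits 6 of 33 above and 10 below, and replication genes 6 of 32 above and 9 below. None of these 5 lists had a member at least 1.5-fold apart from ESC in all lines, against 2.69% above and 1.39% below over all genes. The median SD between the lines was 0.07 for the cytosolic ribosomal list and 0.09 for the respiratory chain.

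The lists of blood genes differed in direction. Of 25 leukocyte genes listed, 7 were members, and 4 of these lay above ESC in all lines, 2 of them at least 1.5-fold, and 1 lay at least 1.5-fold below. Lsp1, an actin-binding protein of leukocytes and 1 of those 2, stood at 5.53, 5.49 and 5.68 in the lines, above background in 1 of 3, and at 4.89 in ESC, below background. Was, an actin regulator of blood cells, stood at 7.09, 6.34 and 6.36 in the lines and at 7.70 in ESC, 2.15-fold lower. Car2, a carbonic anhydrase of erythroid and other cells, stood at 7.13, 6.78 and 7.13 in the lines and at 7.93 in ESC. Of 29 granulocyte, monocyte and lymphoid genes listed, 7 were members, 1 above and 4 below ESC in all lines. B2m, the invariant chain of MHC class I, stood at 10.33, 10.28 and 10.24 in the lines and at 9.51 in ESC, 1.71-fold higher, and a second probe differed by 0.93.

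A further set of genes put the lines on opposite sides of ESC. Tex13b, a testis-expressed X-linked gene, stood at 9.59, 6.77 and 6.92 in lines 1.1.2, 7 and 9 and at 8.99 in ESC, the widest such range at 2.82. Foxq1, a forkhead factor, stood at 8.63, 6.43 and 7.51 in the lines and at 7.32 in ESC. Otx2, a homeobox factor of the epiblast leaving the naive state, stood at 8.69, 10.46 and 10.05 in the lines and at 8.81 in ESC. Rhox5, an X-linked homeobox gene, stood at 11.59, 9.74 and 10.29 in the lines and at 10.12 in ESC. In each of these genes 1 line lay on the other side of ESC from at least 1 of the others, and line 1.1.2 stood apart from both others in Tex13b and Otx2. The other widest such ranges were those of Gata6 and Lama1, given above, and of Srgn, Mlana, Islr2 and Rassf4.

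Differences from ESC were not evenly spread over the chromosomes. The 446 member genes on chromosome 8 had median differences of 0.09, 0.26 and 0.34 in lines 1.1.2, 7 and 9, against 0.40 in MEF_iPSC and 0.01 in LinPos_iPSC. The 279 genes on chromosome 14 had medians of 0.03, 0.23 and 0.23 in the lines, against 0.17 in MEF_iPSC and 0.17 in LinPos_iPSC. The medians of the other 18 chromosomes lay between -0.11 and 0.07 in all 3 lines. All 3 lines lay above ESC for 53.6% of the chromosome 8 genes, against 28.8% of all genes. At least 1.5-fold above were 20 of them (4.48%), against 2.69% of all genes. That share was higher on chromosomes 1 (6.09%), 13 (5.46%) and 14 (4.66%). Kcnk1, Cdh1, Cdh3, Col4a1, Col4a2, Junb and Msmo1, all higher than ESC, lie on chromosome 8. So do 1700016D06Rik, Calb2 and Has3, which were lower. The part of the chromosome-wide shift in the values of all these genes was not tested. Without chromosome 8, 251 probes were at least 1.5-fold above ESC in all lines, and the median of the epithelial junction list was 0.25, against 0.35 with it. Over the alternative settings that median ranged from 0.10 to 0.47. On chromosome 14, 40.1% of genes lay above ESC in all lines, and Bmp4, Ajuba and Slc7a7 lie there.

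**Figure D5:**
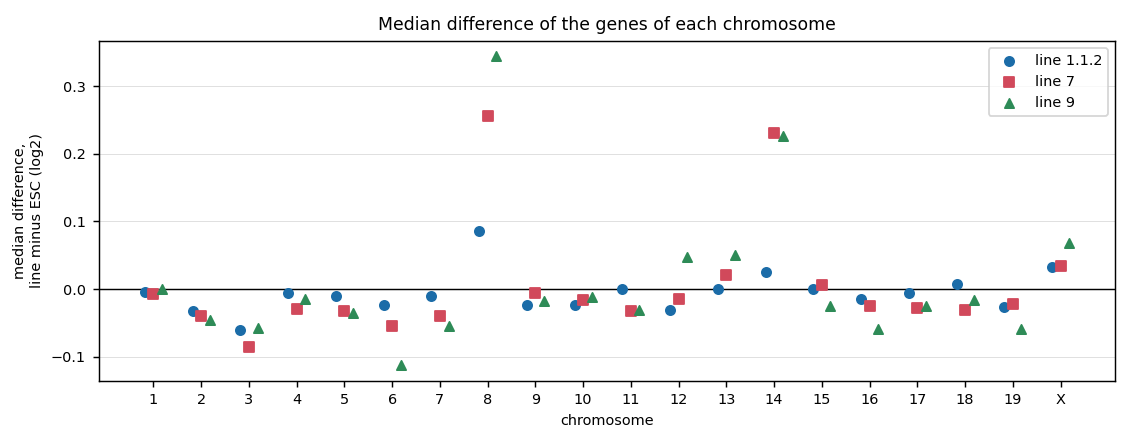
Median log2 difference from ESC of the member genes of each chromosome (vertical axis), for lines 1.1.2, 7 and 9. Lines 7 and 9 stand at 0.23 to 0.34 on chromosomes 8 and 14, while line 1.1.2 stays at or below 0.09 on every chromosome.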

How the data were processed

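Per the labels' protocols, biotin-labelled RNA was made from total RNA in a 12 h in vitro transcription. It was hybridised to 7 Illumina mouse bead arrays. The deposited table held 1 intensity per probe and array on a linear scale, without background subtraction or scaling between arrays, and a deposited detection p-value. A second deposited table held the authors' processed log2 values and was used as an alternative. The submitters' processing notes list BeadStudio 3.2, lumi and RMA, with roles not given in the sources used here.

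Intensities were background-corrected from the detection p-values (limma 3.58.1 in R 4.3.3, nec with offset 16), quantile-normalized over all 7 arrays and taken to log2. The LinNeg_iPSC lines were compared with ESC by limma (lmFit, eBayes) on 4 arrays, adjusted by the Benjamini-Hochberg method over 11809 probes at a threshold of 0.05. The procedure was also run on simulated data. There the ESC array was drawn with the spread of the lines, so the run could not check that assumption. Genes were named by the platform's probe annotation: 23978 probes had 1 symbol, 0 had several, 1719 had none, and 23962 matched a GRCm38.p6 gene table. A gene was represented by its member probe with the highest mean over the 4 arrays, and 2138 genes had further member probes, given where they are bright enough to be members. Where ESC, or a line, was not above background, its value was raised to the lowest above-background value of that array and the fold is written as at least N-fold.

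The members, the 50 lists of genes and the naming rule were chosen with earlier results of these data known. The rule took the 15 genes with the widest gap between ESC and the nearest line in each direction, up to 6 such members and up to 2 members of widest range per list, the 10 genes of widest range around ESC, and a fixed set. The median intensity of an array was 103.0 to 134.9 units, and the number of arrays limits the precision. Alternatives numbered 15, and no column of values was left unused.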

Additional observations from a re-analysis of the deposited data

How the results depend on the processing

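The number of probes past limma was 0 under the main settings, 4 without background correction and 103 with the variance trend and robust prior. The count at least 1.5-fold above ESC in all lines was 272, against 499 with the authors' processed table, 68 without background correction and 136 with offset 50. The count at least 1.5-fold below was 175, against 313, 28 and 65 in those settings, 90 when probes had to be above background on all 4 arrays and 114 with 1 probe per gene. Leaving out each line gave 362 to 622 above and 252 to 453 below, highest without line 1.1.2 in both directions, and fewer lines then had to agree. Without a filter, 6728 of all probes lay above ESC in all lines and 7272 below. By at least 1.5-fold, 277 then lay above and 237 below, and 277 and 236 with detection p under 0.05. The count below thus moved more with the filter than the count above. The cause of these shifts was not tested, except that fewer probes or lines enter some settings.

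Of 699 recomputed list medians, 580 stayed within the spread between lines, 114 moved beyond it and 5 turned round from a median of at least 0.1 in size. A further 34, in 14 lists whose reported medians lay between -0.06 and 0.07, crossed 0. The 5 were, without a filter, the Cdk inhibitor genes at -0.0408, the granulocyte, monocyte and lymphoid genes at 0.0239, the erythroid, megakaryocyte and mast cell genes at 0.00881 and the keratins at 0.0238, and, with detection p under 0.05, the erythroid list at 0.0103. Of 1681 recomputed differences of named genes, 1530 stayed within that spread, 151 moved and 0 were called in the opposite direction. Settings that changed only which probes were kept reused the main values. With the authors' table, no background correction, offset 50 or the 4 arrays alone, the probe counts above and below ESC stayed at exactly 3275 and 3668. Such settings could hardly turn a gene round, so the 0 says little about stability. The median of all genes lay between -0.04 and 0.01 under every scaling. No paired analysis was possible because ESC has 1 array.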

Other observations

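Some single genes of lists outside those described above were set apart from ESC in all 3 lines. Zscan4c, a marker of the 2-cell-like state that ES cells enter now and then, stood at 8.98, 9.19 and 9.33 in lines 1.1.2, 7 and 9 and at 8.53 in ESC, but was not well above background in LinPos_iPSC at 4.82. Of the 4 member genes of the 2-cell-like list, it was the 1 above ESC in all lines, and the other 3 had lines on both sides. Slc7a7, a subunit of a cationic amino acid transporter, stood at 7.58, 9.07 and 8.26 in the lines and at 6.87 in ESC, 2.69-fold higher, and a second probe differed by 1.33. Slc31a2, a copper transporter, stood at 5.41, 5.30 and 5.59 in the lines, above background in 1 of 3, and at 6.62 in ESC, at least 2.09-fold lower. Over 133 solute carriers, 36 (27.1%) lay above ESC in all lines, 3 at least 1.5-fold, and 45 (33.8%) below, 2 at least 1.5-fold. Over 144 Zfp zinc finger genes, 29 (20.1%) lay above, 3 at least 1.5-fold, and 40 (27.8%) below, 4 at least 1.5-fold. Over all genes, 28.8% lay above and 30.6% below, and 2.69% and 1.39% did so by at least 1.5-fold. Neither list exceeded all genes in the share above ESC. Zfp553 was the zinc finger gene furthest below ESC, at 7.44, 7.41 and 7.51 in the lines and 8.54 in ESC, and Zfp869, on chromosome 8, stood at 6.64, 6.95 and 7.62 in the lines and at 5.86 in ESC.

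Man2b1, a lysosomal mannosidase on chromosome 8, stood at 11.005, 11.03 and 11.03 in the lines and at 10.42 in ESC. Among 25 glycolysis and hypoxia genes, 5 lay above and 11 below ESC in all lines, and Hk1, a hexokinase, stood at 6.99, 7.03 and 7.17 in the lines and at 7.69 in ESC. Among 21 interferon and antigen presentation genes, 8 lay above and 6 below, and Bst2, the membrane protein tetherin, stood at 7.68, 7.93 and 7.82 in the lines and at 8.39 in ESC. Eif2s2, a translation initiation subunit, stood at 13.18, 12.19 and 12.24 in the lines and at 13.66 in ESC, 2.18-fold lower, and a second probe differed by -1.51. Xist, the RNA that coats an inactive X chromosome, stood at 5.02, 5.72 and 5.25 in the lines, above background only in line 7, and at 4.85 in ESC. Of the Y-linked genes, Uty stood at 5.48, 5.0025 and 5.82 in the lines, above background in 1 of 3, and at 5.01 in ESC, below background, and Eif2s3y was not above background on any of the 4 arrays.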
